A study of Mus musculus with 27 samples.

Results

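Haem is made by a chain of enzymes that begins and ends in the mitochondrion, and the iron that the last step inserts is carried across the inner mitochondrial membrane by mitoferrin. The genes described here are 9 genes of that route, taken by name: Alas1 and Alas2, which encode the housekeeping and the erythroid form of the first enzyme, 5-aminolevulinate synthase; Alad, Uros, Urod, Cpox, Ppox and Fech, which encode later enzymes; and Slc25a37, which encodes mitoferrin 1, the iron importer of erythroid mitochondria. All 9 were found among the 24025 genes of the bulk table and among the 19020 genes of the single-cell table.

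The libraries came from C57BL/6 mouse hearts with deletions of Hand2os1 (Hand2as), a long non-coding RNA gene beside Hand2. Allele F removes the gene at full length and allele D removes its 3′ distal part. The 25 bulk libraries came from whole hearts at E11.5, in days of embryonic development (3 F/+ and 3 F/F), from E16.5 ventricles (3 of each genotype) and from cardiomyocytes of mice aged 8 weeks (5 +/+, 2 D/+ and 6 D/D). The 2 single-cell libraries, labelled +/+ and F/F, each combined cells of 6 E11.5 hearts that had been dissociated with trypsin and sorted as living cells. All embryonic bulk controls were heterozygous for F, so no wild-type embryonic bulk library entered a comparison.

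Most haem in the body is made by red cell precursors, which need it for haemoglobin, and Alas2 is the form of the first enzyme that they use. Other cells make haem for mitochondrial cytochromes and similar proteins and use Alas1, whose product is rate-limiting there. At E11.5 the heart is filled with blood whose red cells still hold nuclei and RNA. In bulk tissue, fewer cells of a type and less RNA per cell cannot be told apart.

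Hand2os1 served as a check of the labels. Its bulk row was listed at 0 in all 6 E11.5 hearts, which therefore check nothing. At E16.5 it stood at 0.37 to 1.40 FPKM in the F/+ ventricles and at 0 in the F/F ventricles. At 8 weeks it stood at 0 to 13.5 FPKM in +/+ and 0 to 2.67 FPKM in D/D cardiomyocytes, and 1 library labelled +/+ was at 0. The single-cell rows held 1 UMI (a counted molecule) in the library labelled +/+ and 9 in the library labelled F/F, which goes against the labels. Red cell markers other than globins (10 genes in the bulk table, among them Slc4a1, Klf1 and Hemgn) summed to between 251.3 and 1108 FPKM per library at E11.5, 4.27 to 10.5 at E16.5 and 2.05 to 4.59 at 8 weeks. The 11 cardiomyocyte markers summed to between 11310 and 15610 FPKM, 15150 and 17100, and 23890 and 34080 in the same order. Of the 8-week libraries, +/+ replicate 5 and D/D replicate 6 stood apart from the other 11 on the first principal component. Its scores were 54.8 and 54.2 there and 16.2 or less elsewhere.

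Promoter windows of 300 bases, from 250 before to 50 after a transcription start, were taken from RefSeq (GRCm38.p6) for 7 of the 9 genes. Those of Fech and Slc25a37 were not used here. Words bound by GATA factors, such as the erythroid factor GATA1, were searched on both strands. The word AGATAA was one, and the word TGATAA differs from it in the first letter. Each was also searched with a final G, as AGATAG in the former case and as TGATAG in the latter. They were found at Alas2, Cpox and the downstream start of Uros, which makes 3 of 10 member windows, and in 29.8% of all 32851 windows. The sequences show where these letters lie in 3 genes that were higher in erythroid cells below; the capitals mark them, printed as the strand of the gene reads, and bases that an annotated exon covers are left out.
Alas2, chrX:150547167-150547374, + strand: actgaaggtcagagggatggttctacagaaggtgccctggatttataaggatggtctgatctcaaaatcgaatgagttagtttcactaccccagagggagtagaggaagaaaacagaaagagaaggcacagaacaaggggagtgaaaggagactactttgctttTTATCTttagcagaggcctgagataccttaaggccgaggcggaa
Cpox, chr16:58669958-58670207, + strand: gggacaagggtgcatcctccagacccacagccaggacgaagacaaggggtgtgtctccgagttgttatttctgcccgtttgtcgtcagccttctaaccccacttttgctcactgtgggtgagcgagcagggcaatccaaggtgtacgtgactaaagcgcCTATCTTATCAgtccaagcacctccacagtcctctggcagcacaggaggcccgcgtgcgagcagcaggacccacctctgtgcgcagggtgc
Uros, chr7:133702617-133702750, - strand: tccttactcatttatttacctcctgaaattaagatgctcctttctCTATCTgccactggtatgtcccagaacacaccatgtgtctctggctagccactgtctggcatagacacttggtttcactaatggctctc
The Alas2 match begins 86 bases before the start. The Cpox window holds 3 matches, of which 2 lie before the start. This pair begins 91 and 86 bases before it and shares 1 base. The Uros match printed begins 205 bases before the downstream start, and another begins 68 bases before it. The windows of Alas1, Alad, Urod and Ppox held none of the 4 words.

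Alas2 messenger RNA carries an iron-responsive element, a hairpin through which iron regulatory proteins control its translation. It was found by its pattern, a C and then 5 bases before the loop CAGTGN, in exon 1 within the 5′ untranslated region of the GENCODE vM21 transcript. The loop is in capitals and the bulged C is the fifth base.
Alas2 iron-responsive element, chrX:150547460-150547484, + strand: ggttcgtcctCAGTGCagggcaaca

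Alas2 had the highest mean of the 9 genes in E11.5 hearts and the lowest in 8-week cardiomyocytes, and Alas1 took the reverse course. Alas2 read 148.6, 66.2 and 336.9 FPKM in the 3 E11.5 F/+ hearts and 147.9, 95.4 and 226.5 FPKM in the 3 F/F hearts. FPKM scales reads by transcript length and library, so levels of different genes may be set side by side. In E16.5 ventricles Alas2 read 14.4, 8.32 and 9.32 FPKM in F/+ and 26.2, 14.5 and 16.6 FPKM in F/F. In 8-week cardiomyocytes it lay between 0.37 and 0.89 FPKM in the 5 +/+ libraries, at 0 and 0.41 FPKM in D/+, and between 0 and 1.47 FPKM in the 6 D/D libraries. No library of a later stage reached the range of an earlier one.

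Alas1 read 17.6, 14.6 and 12.4 FPKM in E11.5 F/+ hearts and 25.25, 11.6 and 17.5 FPKM in F/F hearts. It read 29.7, 26.0 and 26.65 FPKM in E16.5 F/+ ventricles and 24.8, 27.1 and 28.45 FPKM in F/F ventricles. In +/+ cardiomyocytes it read 154.3, 98.3, 93.8, 111.8 and 61.8 FPKM, the last in the replicate that stood apart. D/+ cardiomyocytes held 117.7 and 127.7 FPKM, and the 6 D/D libraries held 58.5 to 158.7 FPKM with a median of 105.7. The ratio of Alas2 to Alas1 thus went from 4.53 to 27.2 at E11.5 through 0.319 to 1.06 at E16.5 to at most 0.0121 at 8 weeks.

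**Figure D1:**
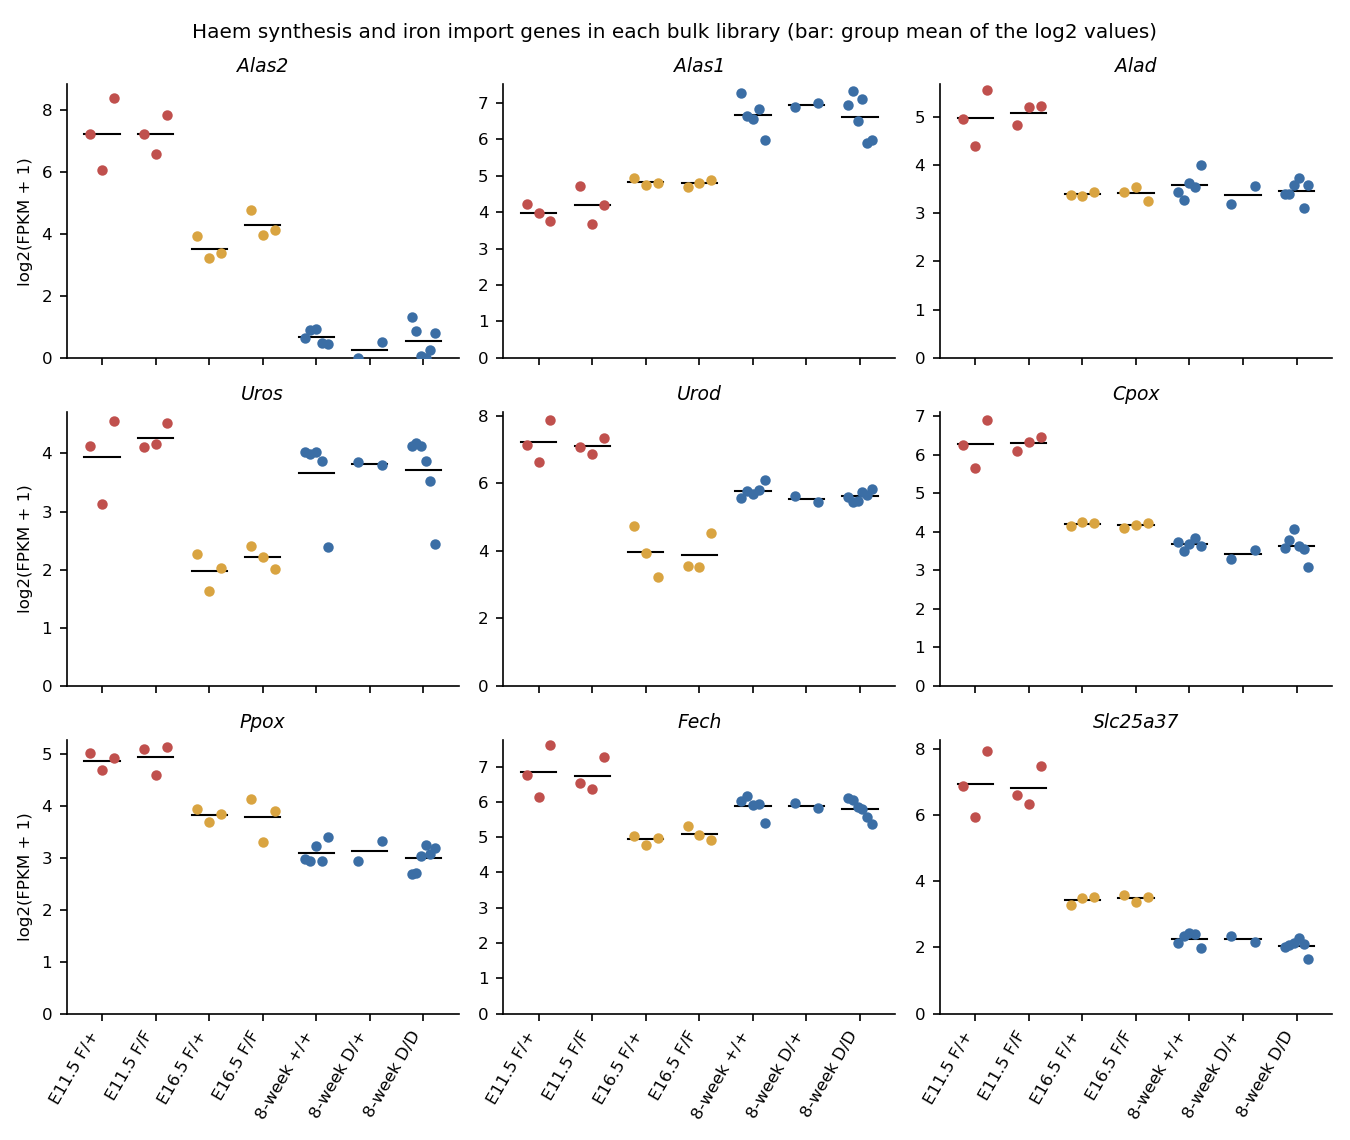
Level of each gene in each bulk library, as log2(FPKM + 1), by stage and genotype; points are libraries and bars are means of the log2 values. Alas2 and Slc25a37 step down at each stage, Alas1 steps up, and Urod, Uros and Fech dip at E16.5.

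The order of the other members changed with stage as well. In E11.5 F/+ hearts Urod followed Alas2 at 157.5 ± 69.6 FPKM (mean ± SD, n = 3), then Slc25a37 at 141.1 ± 95.1, Fech at 124.0 ± 63.7 and Cpox at 81.4 ± 35.1. Neighbours among these 5 overlapped in range. Below a gap came Alad at 32.0 ± 12.98, Ppox at 28.2 ± 3.29, Uros at 15.6 ± 7.47 and Alas1 at 14.9 ± 2.61 FPKM. The order was the same in F/F hearts. In +/+ cardiomyocytes (n = 5) Alas1 led at 104.0 ± 33.6 FPKM, followed by Fech at 59.1 ± 10.9 and Urod at 54.6 ± 8.45, whose ranges met. Uros, Cpox and Alad had means between 11.15 and 12.6 FPKM, and Slc25a37 stood at 3.83 ± 0.615 and Alas2 at 0.614 ± 0.253 FPKM.

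At E11.5 the spread between replicates of one genotype was wide, and most members shared part of it. Among F/+ hearts replicate 3 held the most and replicate 2 the least of the red cell markers and of globin, which took 29.7% and 10.4% of all FPKM. Of the 9 members, 7 were highest in replicate 3, the exceptions being Alas1 and Ppox, and 8 were lowest in replicate 2, the exception being Alas1. Among F/F hearts, where red cell markers were highest in replicate 3 and lowest in replicate 2, 8 members were highest in replicate 3, again without Alas1. Only 6 were lowest in replicate 2, since Alad, Uros and Cpox were lowest in replicate 1. Alas2 stood at 0.235 to 0.304 of the red cell marker sum in all 6 hearts, a narrower range than that of its level. At E16.5 Alas2 stood at 1.67 to 2.51 of their sum.

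Compared with E11.5 F/+ hearts, E16.5 F/+ ventricles held less of 8 members and more of Alas1, and all 9 passed the test. The test was limma on log2(FPKM + 1) with Benjamini-Hochberg adjustment, and a log2 difference on that scale understates the change of low genes. Of 11423 genes tested, 49.5% passed (18.3% higher, 31.2% lower), so a pass alone does not set a gene apart. At an unadjusted p under 0.05, 55.9% of genes and all 9 members passed. Alas2 fell by 3.72 on the log2 scale (SE 0.47, adjusted p 3.39e-05), which is 13.2-fold. Slc25a37, which read 116.1, 61.1 and 246.3 FPKM at E11.5 and 8.72, 10.2 and 10.6 FPKM at E16.5, fell by 3.49 (SE 0.39, adjusted p 1.27e-05). Urod, which removes carboxyl groups from uroporphyrinogen, read 139.3, 98.8 and 234.4 FPKM and then 25.8, 14.3 and 8.36 FPKM. It fell by 3.25 (SE 0.39, adjusted p 2.05e-05).

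The other enzymes fell less. Cpox, which makes protoporphyrinogen, fell by 2.06 (SE 0.23) and Uros, which closes the ring, by 1.96 (SE 0.31). Fech, which inserts the iron, fell by 1.90 (SE 0.30) and Alad, which condenses aminolevulinate, by 1.58 (SE 0.23). Ppox, the enzyme before Fech, fell by 1.04 (SE 0.21, adjusted p 0.00117), from 24.6 to 31.1 FPKM to 11.9 to 14.3 FPKM. Alas1 rose by 0.85 (SE 0.22, adjusted p 0.00588). In none of the 9 did the ranges of the groups overlap, as was true of 59.9% of genes tested. The median log2 difference of the members was -1.96 and that of all genes tested -0.18. The 9 red cell markers tested all fell, with a median of -4.15. The stages also differ in tissue, whole heart against ventricle, and these cannot be told apart.

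From E16.5 F/+ ventricles to 8-week +/+ cardiomyocytes the route split. Alas1 rose by 1.82 (SE 0.30, adjusted p 2.95e-05), Urod by 1.82 (SE 0.27, adjusted p 1.02e-05), Uros by 1.68 (SE 0.38, adjusted p 7.92e-04) and Fech by 0.95 (SE 0.18, adjusted p 1.47e-04). Alas2 fell by 2.83 (SE 0.28, adjusted p 7.80e-08), Slc25a37 by 1.17 (SE 0.15, adjusted p 2.08e-06), Ppox by 0.73 (SE 0.19, adjusted p 0.00272) and Cpox by 0.54 (SE 0.16, adjusted p 0.00769). Alad, at 9.20 to 9.89 FPKM and then 8.71 to 15.03 FPKM, overlapped and did not pass (log2 difference 0.19, SE 0.17, adjusted p 0.320). So 8 of 9 members passed, 4 in each direction, where 69.5% of 10932 genes did (25.2% higher, 44.3% lower). At an unadjusted p under 0.05 the same 8 members and 71.7% of genes passed. These 8 did not overlap between the groups, nor did 65.8% of genes. This comparison shares its E16.5 libraries with the one before.

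The values behind the split were distinct for the genes that rose. Urod read 46.0 to 68.4 FPKM in the 5 +/+ libraries against at most 25.8 FPKM at E16.5. Uros read 13.6 to 15.2 FPKM in 4 of the 5 and 4.25 FPKM in replicate 5, against 2.09 to 3.83 FPKM at E16.5. Fech read 41.2 to 70.2 FPKM against 26.5 to 32.05 FPKM. The calls on Cpox, Ppox and Alad changed with the scaling. Under median-ratio scaling Cpox stood at -0.08 (adjusted p 0.685) and Ppox at -0.29 (adjusted p 0.203), and Alad rose by 0.64 (adjusted p 0.00671). Over all alternatives the adjusted p ran from 1.05e-04 to 0.685 for Cpox, 3.98e-05 to 0.203 for Ppox and 0.00671 to 0.629 for Alad. This comparison also changes tissue preparation (ventricle to cardiomyocytes) and allele (F/+ to +/+), which cannot be told apart from age.

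**Figure D2:**
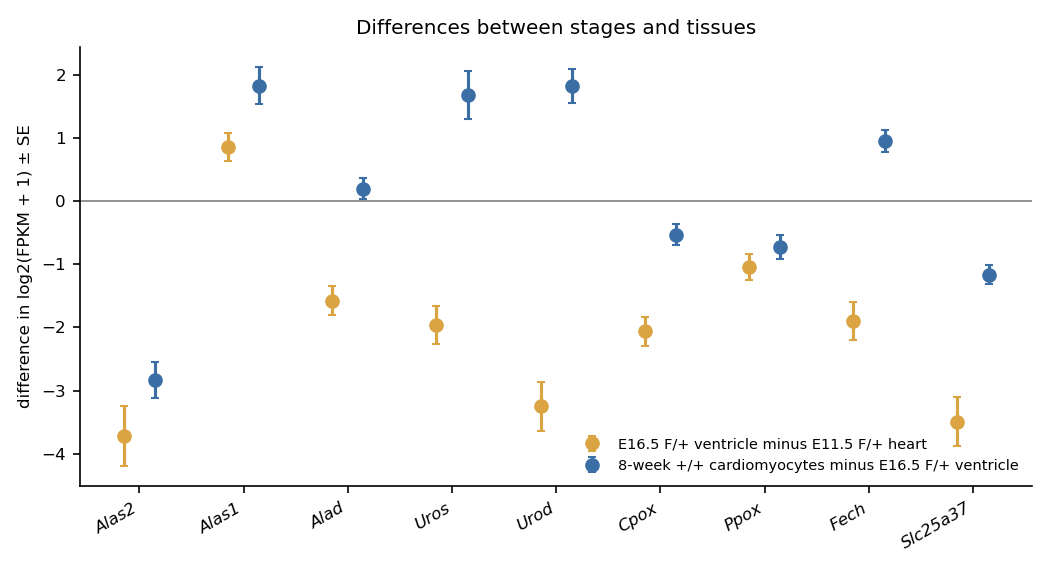
Fitted difference in log2(FPKM + 1) for each gene with its standard error, E16.5 F/+ ventricle minus E11.5 F/+ heart and 8-week +/+ cardiomyocytes minus E16.5 F/+ ventricle. Alas2 and Slc25a37 lie below 0 in both, Alas1 above 0 in both, and Urod, Uros, Fech and, by a difference that did not pass, Alad change sides.

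In single cells the members other than Alas1 were concentrated in red cells. Erythroid cells were taken as those with 20% or more of their UMIs from globin genes, a rule that uses none of the 9. They numbered 965 of 2503 cells in the library labelled +/+ and 1246 of 3368 in the library labelled F/F, and globin made up 60.6% and 59.2% of their UMIs. Few cells lay near that limit, 8 in each library between 15% and 25%. All 11 red cell markers of the table other than globins had higher CPM (the UMIs of a gene scaled to the total of the class) in these cells than in the rest. The other named classes together held 1453 and 2036 cells at a median of 14433 and 14541 UMIs, against 10999 and 11669 in erythroid cells. Each genotype is a single library, so no test was made between them, and the exact intervals below cover counting error only. The libraries shared 18 barcode sequences.

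Alas2 led in erythroid cells, at 861 CPM (846 to 876, exact Poisson at 95%) in the +/+ library as labelled and 810 CPM (797 to 823) in the F/F library. Urod followed at 443 and 444 CPM and Slc25a37 at 427 and 420 CPM. Cpox stood at 386 and 384 CPM, Alad at 330 and 349 CPM and Fech at 275 and 273 CPM. Ppox, at 76.8 and 79.7 CPM, and Uros, at 55.1 and 56.3 CPM, were lower. Alas1 gave 14 and 27 UMIs in all, or 0.995 and 1.47 CPM. CPM are not scaled by transcript length, and the libraries read 3′ ends.

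Against all other named classes combined, Alas2 was 41.8-fold and 35.3-fold higher in erythroid cells, in the order +/+ and F/F. Slc25a37 was 15.5-fold and 14.2-fold higher, Urod 8.45-fold and 8.21-fold, Fech 8.37-fold and 8.78-fold, and Cpox 7.92-fold and 11.1-fold. Uros was 5.32-fold and 5.41-fold higher, Ppox 5.11-fold and 5.36-fold, and Alad 4.74-fold and 4.77-fold. Alas1 was 19.4-fold and 11.8-fold lower. Thus 8 of 9 members were at least 2-fold higher in both libraries, where 2.05% of 10282 genes were, and 1 was at least 2-fold lower, where 82.2% were. Globin fills most of the erythroid UMIs. The median log2 ratio of all genes was -2.21 among all UMIs and -0.91 among UMIs other than globin. Counted without globin UMIs the same 8 members were at least 2-fold higher (6.02% of genes) and Alas1 at least 2-fold lower (44.2% of genes).

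Thinned to 5000 UMIs per cell, 97.6% and 97.3% of erythroid cells held an Alas2 UMI, against 8.77% and 10.3% of other named cells. For Urod the shares were 88.5% and 89.3% against 24.2% and 25.3%. For Alas1 they were 0.452% and 0.677% against 8.56% and 9.22%. Unthinned, 1.45% and 2.09% of erythroid cells and 24.2% and 21.9% of the others held an Alas1 UMI. Cells with fewer than 5000 UMIs were left out, 80 erythroid and 51 other cells in the library labelled +/+ and 65 and 84 in the library labelled F/F.

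**Figure D3:**
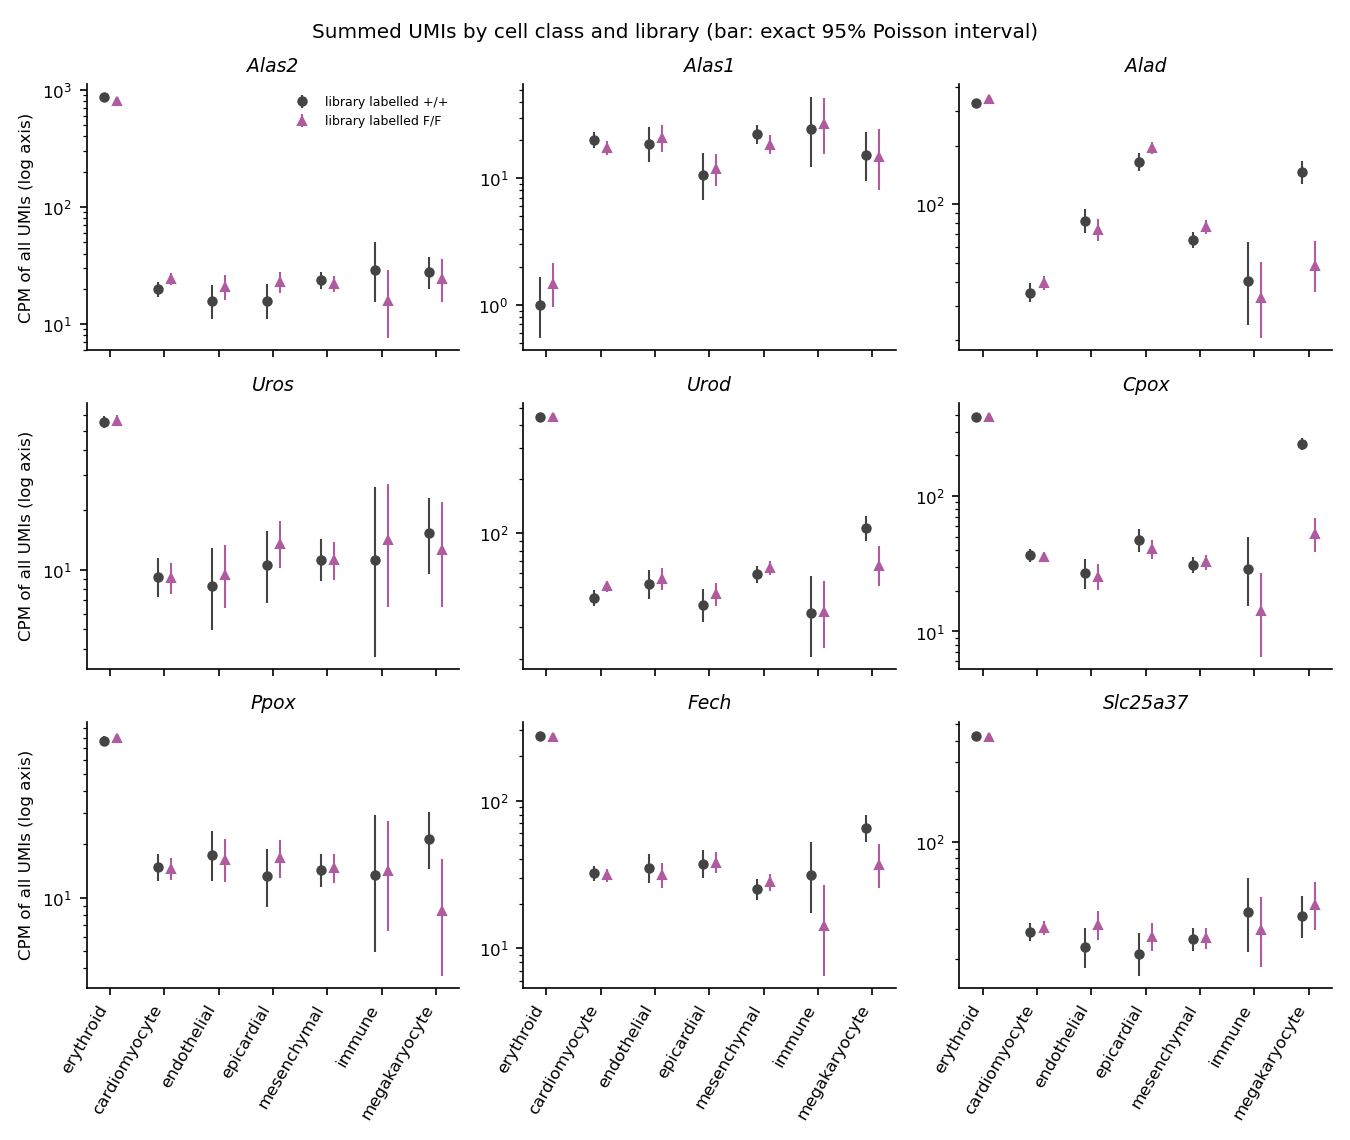
CPM of each gene in 7 cell classes of the libraries labelled +/+ (circles) and F/F (triangles) on log axes, with exact 95% Poisson intervals. For 8 genes the erythroid class is the highest, Alas1 is lowest there, and Alad is next highest in epicardial-like cells.

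The share of each gene's UMIs that lay in erythroid cells ordered the members. It was 96.1% and 95.5% for Alas2, 90.5% and 89.4% for Slc25a37, 83.8% and 83.9% for Fech, 83.7% and 82.9% for Urod and 83.0% and 86.8% for Cpox. Uros, Ppox and Alad held 73.9% to 76.3% there, and Alas1 3.02% and 4.80%. All genes together held 38.0% and 37.2%. Over the 9 genes, a larger erythroid share in single cells went with a larger fall in bulk from E11.5 to E16.5 (Spearman rho -0.90, Pearson r -0.88, across 9 genes, which are not independent replicates).

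Outside erythroid cells Alas2 kept nearly the ratio to globin that it had within them. Globin made up 1.47% and 1.58% of UMIs in the other named classes. The CPM of a gene there was divided by the CPM it would have at its erythroid ratio to globin, which gives 1 for a gene that moves with globin. For Alas2 the quotient was 0.733 to 1.18 in the 6 classes of the library labelled +/+ and 0.838 to 1.13 in those of the library labelled F/F, at 15.7 to 29.1 CPM. Whether that level is background or expression was not tested. Slc25a37 stood at 2.22 to 3.78 over its own such level, and Uros at 5.88 to 10.9. Alas1, which erythroid cells hardly held, stood at more than 314 in every class, at 10.5 to 26.8 CPM. Cardiomyocyte markers in erythroid cells summed to 597 and 856 CPM, against 45540 and 45240 CPM in cardiomyocyte-like cells.

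**Figure D4:**
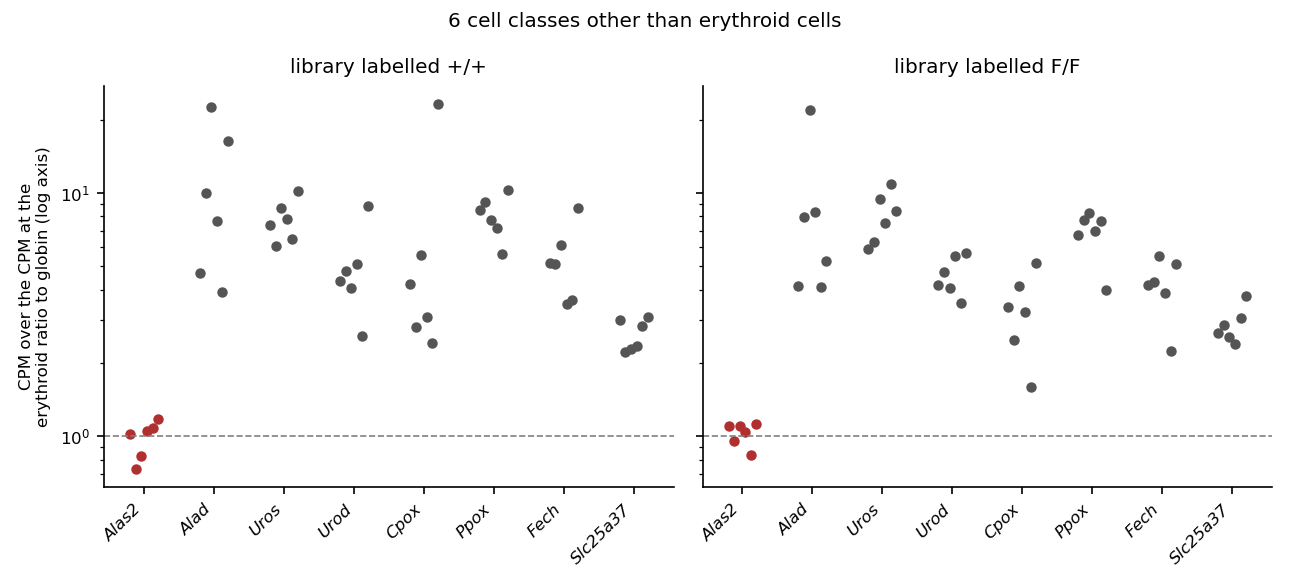
CPM of each gene in 6 classes other than erythroid cells, divided by the CPM it would have at its erythroid ratio to globin, on a log axis; each point is a class and the dashed line marks 1. Alas2 lies at 0.733 to 1.18 and every other gene shown lies at 1.59 or above.

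Alad differed between the classes other than erythroid cells. Epicardial-like cells, the outer layer of the heart, held 165 CPM (149 to 183) and 194 CPM (180 to 208). Cardiomyocyte-like cells held 35.1 and 39.3 CPM. Cells with an Alad UMI after thinning made up 46.6% and 58.6% of the epicardial-like class, against 25.6% and 27.0% over all named classes other than erythroid cells, epicardial-like cells included. Alas2 in the same epicardial-like cells stood at 15.8 and 22.7 CPM.

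The megakaryocyte-like class was next for several members and differed between the libraries. Megakaryocytes make platelets and share a precursor with red cells. This class was 1 cluster of 59 and 44 cells in which all 8 megakaryocyte markers led. Its 10 leading genes also held the myeloid genes Mpo and Prtn3, and 5 of 11 red cell markers were raised in it. Cpox stood at 243 CPM (219 to 270) in the +/+ library and 52.4 CPM (38.9 to 69.1) in the F/F library, a ratio of 0.216 (0.157 to 0.290). Alad stood at 147 and 48.2 CPM, a ratio of 0.329 (0.234 to 0.455), and Urod at 106.5 and 66.1 CPM, a ratio of 0.621 (0.455 to 0.837). The ratios of Ppox (0.391, 0.155 to 0.871) and Fech (0.565, 0.372 to 0.841) also lay below 1. The share of all genes that differ as much in this class was not counted. The class held 352 of the 1074 Cpox UMIs of all named classes other than erythroid cells in the +/+ library. In the F/F library it held 50 of 1037. Globin made up 1.65% and 1.56% of UMIs in the class, and Alas2 (27.7 and 24.1 CPM) and Slc25a37 (36.0 and 41.9 CPM) did not follow. With so few cells of 1 library each, a different make-up of the class and a different level per cell cannot be told apart.

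Within erythroid cells the members differed in how they moved with globin share. Cells were split at 50%, 60% and 70% globin, and CPM was taken without globin UMIs so that globin was not in the denominator. In the library labelled +/+ Alas2 stood at 1155, 1936, 2491 and 2957 CPM from the lowest to the highest range, and in the F/F library at 1197, 1892, 2195 and 2539 CPM. Among all UMIs, globin included, Alas2 stood at 701, 846, 890 and 820 CPM and at 682, 824, 806 and 713 CPM. Its UMIs per cell were 12.4 and 10.3 in the lowest range and 8.75 and 6.57 in the highest. Without globin UMIs, Urod went from 611 to 1393 CPM and from 674 to 1237 CPM. Alad went from 466.1 to 898 CPM, past 904 CPM in the range before the highest, and from 525.9 to 954 CPM. Cpox rose to 1016 and 971 CPM and stood at 865 and 748 CPM in the highest range. Ppox was also lower there than in the range before, at 199 against 211 CPM and 142 against 205 CPM, and so were Fech in the F/F library (567 against 757 CPM) and Slc25a37 in the +/+ library (1143 against 1216 CPM). The intervals of Ppox and Slc25a37 overlapped between these ranges, as did those of Cpox in both libraries. So did those of Fech in the F/F library and of Alad in the +/+ library. Red cell markers in sum rose over the same ranges, from 3262 to 7197 CPM and from 3536 to 6355 CPM. The lowest range held 38 and 40 cells and the highest 73 and 30, and median UMIs fell from 14504 to 8751 and, past 12407 in the next range, from 10207 to 8675. The parts of depth and of leaving globin out of the denominator in this pattern were not tested.

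**Figure D5:**
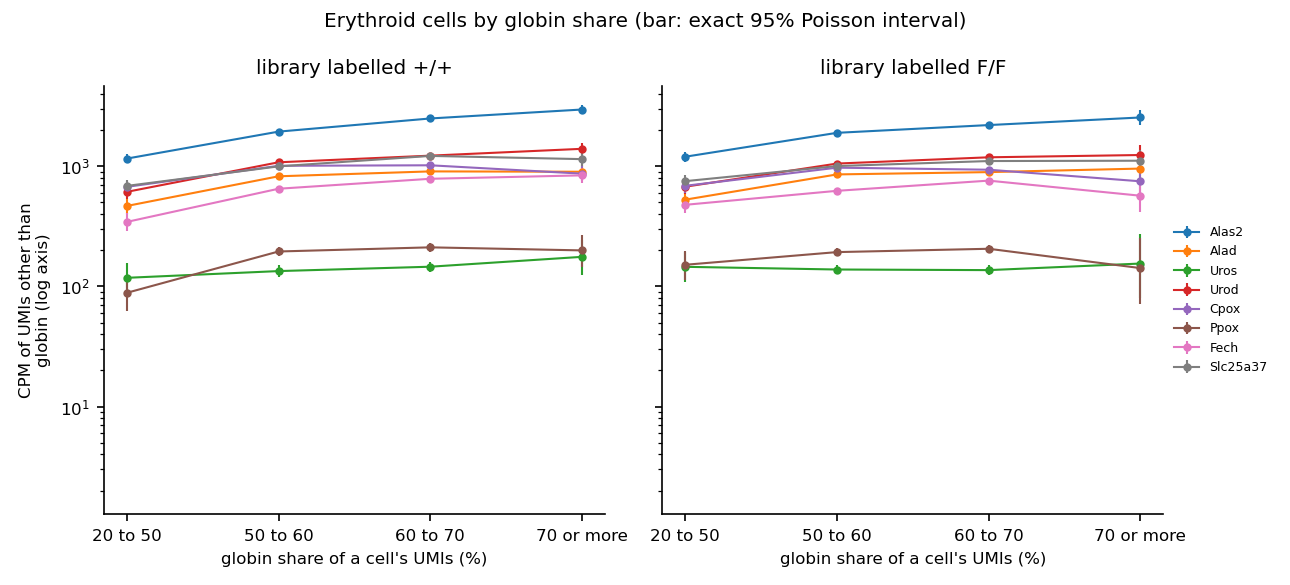
CPM of 8 genes among UMIs other than globin in erythroid cells, by the share of globin in a cell, for each library, with exact 95% Poisson intervals on a log axis. On this scale Alas2 climbs over all 4 ranges in both libraries, and Cpox and Ppox are lower in the highest range than in the one before. Among all UMIs, globin included, Alas2 does not climb over all 4.

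Between Hand2os1 genotypes no member was called as changed in bulk. At E11.5 none of the 9 passed between F/F and F/+ hearts, where 0.00870% of 11491 genes did, and the smallest unadjusted p was 0.350. At an unadjusted p under 0.05, 4.37% of genes passed and 0 of 9 members. Their log2 differences ran from -0.12 to 0.32 with a median of 0.02, as in all genes tested (0.02). That median moved with single libraries: it was -0.28 without F/+ replicate 2, with 1 of 9 members higher in F/F, and 0.34 without F/+ replicate 3, with 9 of 9 higher. Without F/F replicate 2 it was 0.12, with 8 of 9 higher. Rescaled to equal totals without globin, the median of the members was -0.34, with 0 of 9 higher, and that of all genes was -0.31. Alas2 stood at -0.02 (SE 0.49), Alas1 at 0.22 (SE 0.27) and Uros at 0.32 (SE 0.33), each with an adjusted p of 0.999. In all 9 the ranges overlapped, where 9.23% of genes did not overlap.

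At E16.5 none of the 9 passed between F/F and F/+ ventricles, where 0.00935% of 10699 genes did. At an unadjusted p under 0.05, 2.63% of genes and 1 of 9 members passed. That member was Alas2. Its F/F libraries, at 14.5 to 26.2 FPKM, lay above its F/+ libraries, at 8.32 to 14.4 FPKM, with a log2 difference of 0.77 (SE 0.25, unadjusted p 0.0160, adjusted p 0.9999 by limma). Over the alternatives the difference ran from 0.53 to 1.12, with an adjusted p of 0.695 or more. Groups that do not overlap were found for 6.78% of genes tested, and for no other member. Globin took 0.998% to 2.42% of FPKM in the F/F and 0.651% to 0.835% in the F/+ ventricles, and red cell markers summed to 7.36 to 10.5 and 4.27 to 6.51 FPKM. Slc4a1, the anion exchanger of the red cell membrane and the only such marker tested at this stage, stood at 0.67 (SE 0.22). Their part in the Alas2 difference was not tested. Fech stood at 0.17 (SE 0.12) and Uros at 0.23 (SE 0.20), and the ranges of both overlapped. The F effect on Alas2 was 0.79 higher at E16.5 than at E11.5 (SE 0.67, adjusted p 0.999), so the stages were not shown to differ. None of the 9 passed in that comparison, where 0.00875% of 11423 genes did, and at an unadjusted p under 0.05 it was 0 of 9 members and 4.32% of genes.

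At 8 weeks D/D cardiomyocytes were compared with +/+ and D/+ together. Alas2 was below the limit of a mean of 1 FPKM, and 0 of the other 8 passed, as did 0 of 10249 genes. At an unadjusted p under 0.05, 1.71% of genes and 0 of 8 members passed. The groups of all 8 overlapped, and 0.0293% of genes did not. Slc25a37, at 2.15 to 3.87 FPKM in D/D and 2.99 to 4.38 FPKM in control, stood at -0.22 (SE 0.12, adjusted p 0.9999 by limma). Alas1 stood at -0.11 (SE 0.25) and Uros at 0.01 (SE 0.31). Uros read 4.25 FPKM in +/+ replicate 5 and 4.45 FPKM in D/D replicate 6, the pair that stood apart, and 10.6 to 17.1 FPKM in the other 11 libraries.

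In the single-cell libraries the erythroid levels of the 8 members with at least 100 UMIs there differed by less than 1.5-fold between the genotypes. The ratio of F/F to +/+ was 0.941 for Alas2 (0.918 to 0.964), 1.001 for Urod (0.969 to 1.04), 0.984 for Slc25a37 (0.951 to 1.02) and 0.994 for Cpox (0.959 to 1.03). It was 1.06 for Alad (1.02 to 1.10), 0.990 for Fech (0.949 to 1.03), 1.04 for Ppox (0.958 to 1.12) and 1.02 for Uros (0.929 to 1.12). Thus 0 of 8 passed 1.5-fold, where 1.72% of 3887 genes did. Alas1 had too few UMIs for that count, with a ratio of 1.48 (0.748 to 3.05).

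The wider pathway was a list of 40 other genes of haem and iron handling, of which 38 were in the bulk table. From E11.5 to E16.5, 2 of 34 tested rose and 18 fell, with a median log2 difference of -0.62, where 18.3% of all genes rose and 31.2% fell with a median of -0.18. Among those that rose was Ireb2, an iron regulatory protein (0.85, SE 0.30). Among those that fell was Ncoa4, the receptor that delivers ferritin for breakdown (-2.60, SE 0.33). From E16.5 to 8 weeks 17 of 37 rose and 9 fell, where 25.2% of all genes rose and 44.3% fell. Fth1, the ferritin heavy chain, rose by 1.93 (SE 0.20) to 2262 to 3051 FPKM, and Nfe2l2, a factor of the oxidative stress response, rose by 1.89 (SE 0.21).

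Between genotypes no list gene passed, of 36 tested at E11.5, 33 at E16.5 and 36 at 8 weeks. The largest differences at E11.5 were of Trf, which encodes transferrin (1.01, SE 0.91), and Hpx, which encodes the haem carrier hemopexin (0.79, SE 0.71). Both are liver genes, and hepatocyte markers summed to 224.1, 0.6 and 2.26 FPKM in the F/+ hearts and 11.4, 465.7 and 44.5 FPKM in the F/F hearts. Their part in these differences was not tested. Those at E16.5 were of Slc11a2, an iron importer (-0.32, SE 0.19), and Trf (-0.31, SE 0.29). At 8 weeks they were of Hmox1, which breaks haem down (1.38, SE 0.84), and Hamp, which encodes hepcidin (0.65, SE 0.75). Hmox1 lay between 2.34 and 228 FPKM in D/D with a median of 5.74 FPKM, and between 1.71 and 14.9 FPKM in control.

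In single cells, 36 of the 38 list genes in the table had at least 100 UMIs in each library. Of these, 11 were at least 2-fold higher and 12 at least 2-fold lower in erythroid cells, where 2.05% and 82.2% of all genes were. Blvrb, a biliverdin reductase, was 12.8-fold and 16.15-fold higher, and Fam210b, a mitochondrial protein of erythroid iron handling, 11.8-fold and 11.96-fold. Hmox1 was 24.7-fold and 28.5-fold lower. Between the genotypes, the ratio of F/F to +/+ in erythroid cells was 0.611 (0.569 to 0.655) for Slc25a39, a mitochondrial carrier, with 1789 UMIs in +/+ and 1426 in F/F. Slc25a39 was also lower in F/F in the other named classes together, at 119 CPM in +/+ and 77.6 CPM in F/F. For Trf the ratio in erythroid cells was 0.0511 (0.0135 to 0.138), with 60 and 4 UMIs, and the 12 hepatocyte-like cells lay in the +/+ library alone. Both were named after their values were seen.

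The genes most like Alas2 over the 25 bulk libraries, by Pearson's r of log2 values, were Ticrr (0.987), Cep55 (0.984), Mki67 (0.981), Kif4 (0.980) and E2f2 (0.979), from 11436 ranked. For Alas1 they were Pm20d2 (0.980), Cyfip2 (0.978), Srrm4 (0.974), Akap6 (0.973) and Pde4a (0.973). The libraries fall into 3 stages, so these values describe the stages and are no independent evidence of likeness within one. Gene spans of Alas1, Alas2, Uros, Cpox, Ppox and Slc25a37 overlap another annotated gene on the opposite strand, and since the counting is not stated to use strand, their bulk values may hold some reads of those neighbours.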

How the data were processed

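The bulk values deposited by the authors were read as FPKM. That unit was inferred from the values, since no header names it, and depth is unknown. The single-cell table was deposited by the authors as UMI counts. Per the submitters' processing notes the tools and builds were CASAVA, TopHat2 2.0.11 and mm9, and Cell Ranger and mm10. Counting software and annotation are not given in the sources used here. Identical bulk lines of a symbol were merged, and 1 gene with a blank cell was dropped.

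Bulk values were fitted as log2(FPKM + 1) with limma 3.58.1 (R 4.3.3, intensity trend) on genes whose mean in the fit reached 1 FPKM, at an adjusted p of 0.05. The fit was tested on simulated data. The labels do not say that replicates came from separate animals, so p-values measure the spread between these samples. Same-numbered replicates did not deviate together.

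Barcodes with 500 or more genes were kept (2555 and 3464). Scrublet's threshold marked 2 and 4, so 52 and 96 were removed by score. Cells other than erythroid cells were clustered with scanpy 1.11.5 (Leiden resolution 1.0) and named from marker lists. A cluster of 171 cells led by Rgs5 stayed unnamed, and 12 hepatocyte-like cells occurred only in the library labelled +/+. Intervals are exact Poisson, conditional or Clopper-Pearson at 95%.

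Alternatives were another pseudocount (0.1), no filter, other scalings, a single fit of all bulk libraries, a replicate block, a Y-linked covariate, +/+ only as control, leaving out each library and, for single cells, globin limits of 10% and 50%, 1000 genes, doublets kept, resolution 0.5 and CPM without globin. Leaving out both 8-week libraries that stand apart was added after seeing the data. Members and lists were chosen with earlier results of these data known. Members were named everywhere, other genes of the list where called or among the 2 largest differences (called genes beyond those are given as counts, and some list genes are not reported here by name), and the 5 genes most like Alas2 and Alas1.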

Additional observations from a re-analysis of the deposited data

Results flagged for a closer look

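Uros in +/+ cardiomyocytes at 8 weeks was flagged because replicate 5, at 4.25 FPKM, lay far below the next library, at 13.6 FPKM. That gap was 0.856 of the range of the 5 libraries. It was the only one among 18 groups of member values looked at, and chance flags about 1 in 20.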

How the results depend on the processing

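The number of members called kept to 0 between genotypes under every alternative run, at 9 from E11.5 to E16.5, and at 7 or 8 from E16.5 to 8 weeks. The 8 members higher and the 1 lower in erythroid cells, and the 0 past 1.5-fold between genotypes there, held under the 6 single-cell alternatives, although CPM without globin raised the log2 ratio of Alas2 to 6.71 and 6.41 and that of Alas1 to -2.96 and -2.29. Among values that were not called, rescaling to equal totals without globin turned Alas1 to -0.13 and Uros to -0.0251 at E11.5, Uros to -0.00963 between D/D and control, and Alad to -0.15 from E16.5 to 8 weeks. That scaling moved the median of all genes to -0.31 at E11.5 and -0.65 from E16.5 to 8 weeks; the cause was not tested. With each library left out in turn, the E11.5 F/F difference ranged from -0.60 to 0.57 for Alas2, -0.042 to 0.49 for Alas1 and -0.0831 to 0.63 for Uros, and the D/D difference from -0.25 to 0.0313 for Alas1 and -0.21 to 0.26 for Uros. Median-ratio scaling gave 2916 higher and 2746 lower genes from E11.5 to E16.5 (2088 and 3568 as reported) and 3923 and 3204 from E16.5 to 8 weeks (2760 and 4840 as reported), where rescaling without globin gave 2027 and 6076. All 25 libraries in a single fit called 24 genes at E11.5 and 6 in the comparison of F effects, against 1 each, and leaving out E11.5 F/+ replicate 3 gave 2 and 9. Without a library the counts of genes called ran from 4565 to 5634 from E11.5 to E16.5, and from 0 to 2 at E16.5 between genotypes. A replicate block turned Alas1 to 0.11 between D/D and control and changed no other direction or call of a value given one by one; same-numbered samples did not pair, with correlations of -0.435 to 0.082. Depth of the bulk libraries is unknown, and each single-cell genotype is 1 library.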
